A study of Mus musculus with 8 samples.

Results

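Collagen chains were the genes of the deposited expression table whose symbol was Col, a type number, the letter a and a chain number. The pattern matched 44 of 18560 genes, 11 in the fibrillar class, 6 in the basement membrane class and 27 in other classes. They were read in 8 RNA sequencing libraries whose titles name mouse DRG (dorsal root ganglion) as the tissue. Of these, 4 came from animals with the genotype label WT_P60 and 4 from animals labelled cKO_P60. The cKO label stands for a deletion of Alyref, an adaptor that brings mRNA to the nuclear export machinery. P60 in both labels is read as postnatal day 60, an age shared by all 8 libraries. The Cre driver, the cells that lost the gene, the sex of the animals and any treatment are not stated in the labels, and the design text mentions 4 sequencing batches without saying which library belonged to which. The study's title concerns chronic inflammatory pain and the export of Ccn3 mRNA, and collagen genes were not among its stated questions.

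Collagens are secreted or membrane proteins whose chains assemble in threes into a rope-like helix, and the type number names the assembly while the chain number names the gene product within it. Fibrillar collagens form the tensile fibres of connective tissue, including the sheaths of nerves and ganglia and the meninges. Type IV collagen builds the meshwork of basement membranes, which surround blood vessels, Schwann cells and the units of neurons and satellite glia. The other classes decorate fibrils, form beaded filaments or short-chain networks, or cross the plasma membrane.

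The promoters of 4 chains are shown because 2 of them, Col1a2 and Col3a1, were the most abundant collagen transcripts and the other 2, Col6a2 and Col8a1, were chains whose groups did not overlap. Each line gives 125 bases 5′ to 3′ on the gene's own strand, from RefSeq promoter sequences on GRCm38.p6. The windows end at the annotated start, except for Col1a2, whose window ends 125 bases before it because GENCODE M21 places an exon of the gene in between. Capitals mark a TATA box, searched as the letters TATAAA. They also mark a CCAAT box, searched as those letters, and a GC box, searched as GGGCGG. Both strands were searched with overlaps counted, so a GC box on the opposite strand appears in its complementary letters.
Col1a2 (chr6:4505368-4505492, plus strand): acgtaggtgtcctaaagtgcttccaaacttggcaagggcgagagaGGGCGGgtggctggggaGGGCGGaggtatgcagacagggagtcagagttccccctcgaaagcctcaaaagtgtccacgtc
Col3a1 (chr1:45311413-45311537, plus strand): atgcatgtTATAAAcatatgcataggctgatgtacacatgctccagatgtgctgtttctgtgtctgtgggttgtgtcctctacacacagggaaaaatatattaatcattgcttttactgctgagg
Col6a2 (chr10:76623631-76623755, minus strand): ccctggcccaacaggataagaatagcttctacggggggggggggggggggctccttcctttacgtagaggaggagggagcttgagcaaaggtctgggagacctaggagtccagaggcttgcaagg
Col8a1 (chr16:57754738-57754862, minus strand): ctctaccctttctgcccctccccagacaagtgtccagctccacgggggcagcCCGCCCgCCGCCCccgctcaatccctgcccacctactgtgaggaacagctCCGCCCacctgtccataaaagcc

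The Col1a2 window held 2 GC boxes, the Col8a1 window held 3, the Col3a1 window held 1 TATA box, and none of the 3 motifs was found in the Col6a2 window. RefSeq promoter sequences were at hand for 35 of the 44 chains, in 38 windows. Over the 125 bases before the annotated start, GGGCGG occurred in 18 of these 38 windows (47.4%) and in 26.9% of all 32851 promoter windows. CCAAT occurred in 7 (18.4%) against 21.9% of all, and TATAAA in 3 (7.89%) against 6.55% of all. These matches are letters in a window and were not tested as binding sites.

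The basement membrane genes Col4a1 and Col4a2 start head to head on chromosome 8. An annotated start of Col4a1 is at 11312826 on the minus strand and that of Col4a2 at 11312805 on the plus strand. With these, the first 22 bases of both transcripts overlap on opposite strands, the same length as between their GENCODE M21 exons. The RefSeq span of Col4a1 reaches 11312889, so the length of the overlap depends on the annotation. The 22 bases are shown because the level of one chain relative to the other is described further on. Motifs are not marked in this stretch, although it holds the letters GGGCGG.
Col4a1 and Col4a2 shared start (chr8:11312805-11312826, plus strand): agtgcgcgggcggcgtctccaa

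Each library held between 15522915 and 16482614 estimated counts, so depth differed little. WT replicate 2 stood apart: its Spearman correlations with the other libraries were 0.944 to 0.967, while those among the other 7 were 0.990 to 0.996. Avil, a gene of sensory neurons, reached 398 CPM (counts per 1e6 library counts) there and lay at 14.1 to 96.6 CPM in the other 7. The spinal glycine transporter gene Slc6a5, which is not a marker of ganglia, was present in all 8 libraries. It stood at 234 CPM in WT replicate 2 and at 447 to 536 CPM in the other 7, where it lay above Avil. The tissue as sequenced was thus not ganglion alone, and how much of each library was ganglion was not measured. Mean Alyref was 22.0 ± 2.71 CPM for WT against 20.5 ± 0.946 CPM for cKO (SD, n = 4 each; adjusted p = 0.887, edgeR), and the counts do not show a loss of its mRNA. Groups are therefore named by their labels, and fold changes of collagen chains are given with and without WT replicate 2.

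**Figure D1:**
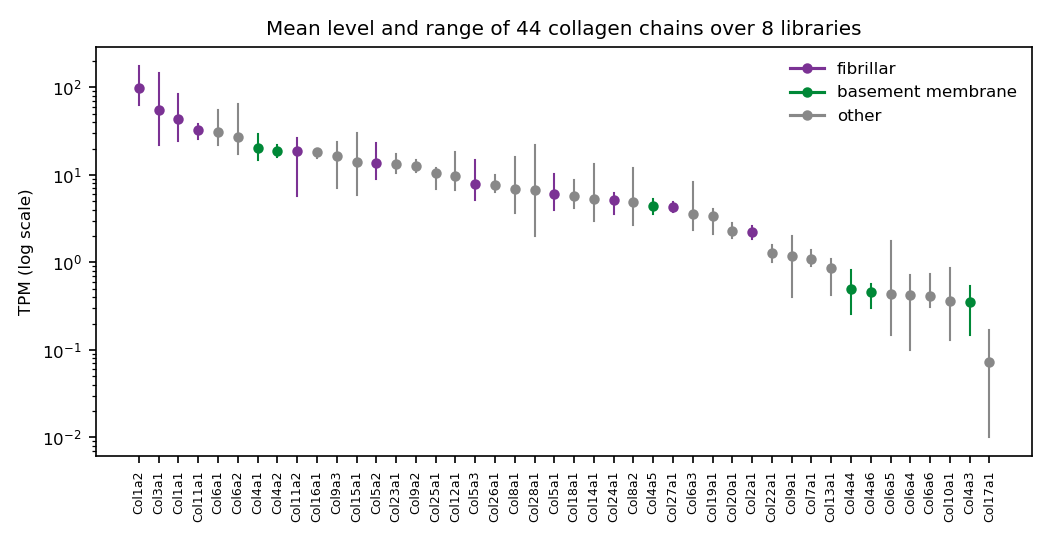
Level of each of the 44 collagen chains in TPM on a log scale. Points are means over the 8 libraries and lines run from the lowest to the highest library (Col17a1, listed at 0 in 1 library, is drawn down to 0.01); Col1a2, at a mean of 98.9 TPM, is highest and Col17a1, at 0.0725 TPM, is lowest.

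On the per-length TPM scale (transcripts per 1e6 transcripts), Col1a2 had the highest mean over the 8 libraries, 98.9 TPM, followed by Col3a1 at 54.9, Col1a1 at 43.8, Col11a1 at 32.2 and Col6a1 at 30.5 TPM. These 5 chains held between 43.1% and 55.6% of all collagen TPM, depending on the library. Type I collagen, the product of Col1a1 and Col1a2, is the main fibre of the outer nerve sheath, and type III, the product of Col3a1, forms fine reticular fibres beside it. A further 11 chains had means between 10 and 30 TPM, 9 between 5 and 10, 10 between 1 and 5, and 9 below 1 TPM, as the plot of levels shows. Col10a1, a chain of growth plate cartilage, and Col17a1, a chain of skin hemidesmosomes, had means of 0.36 and 0.0725 TPM. With 3 to 19 and 0 to 7 estimated counts per library they were under the filter on low counts, which left 42 of the 44 chains for testing, including all 11 fibrillar and all 6 basement membrane chains and 25 of the 27 others.

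Summed over chains, collagen message was highest in WT replicate 2 and overlapped between the groups otherwise. The sum was 455, 881, 597 and 549.9 TPM in WT replicates 1 to 4 and 450.2, 418, 417 and 529.8 TPM in cKO replicates 1 to 4. WT replicates 2, 3 and 4 were the 3 highest libraries, and WT replicate 1 lay between cKO replicates 1 and 4. The means were 621 ± 183 TPM in WT and 454 ± 52.9 TPM in cKO (SD, n = 4 each), and the WT mean was 534 ± 72.3 TPM without replicate 2 (SD, n = 3). WT was thus 1.37 times cKO with all libraries and 1.18 times without that one. Sums here and below are in TPM. TPM of WT replicate 2 was shifted by −0.15 log2 against its CPM, relative to the average library.

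The classes differed in how far WT replicate 2 stood out. The fibrillar sum was 239.8, 499.7, 316 and 306 TPM in WT replicates 1 to 4 and 235, 208, 205 and 293 TPM in cKO replicates 1 to 4. The basement membrane sum was 40.6, 55.3, 49.9 and 48.5 TPM in WT and 40.8, 35.6, 36.7 and 51.7 TPM in cKO. The other classes summed to 175, 326, 232 and 196 TPM in WT and to 175, 174, 176 and 185 TPM in cKO. In each class at least 1 WT library lay among the cKO libraries. WT was 1.45 times cKO for the fibrillar sum, 1.18 times for the basement membrane sum and 1.31 times for the others, and without WT replicate 2 these ratios were 1.22, 1.12 and 1.13. Fibrillar chains made up 49.0% to 56.7% of collagen TPM in every library. RNA came from whole tissue, so fewer matrix-producing cells and less collagen mRNA per cell cannot be told apart.

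**Figure D2:**
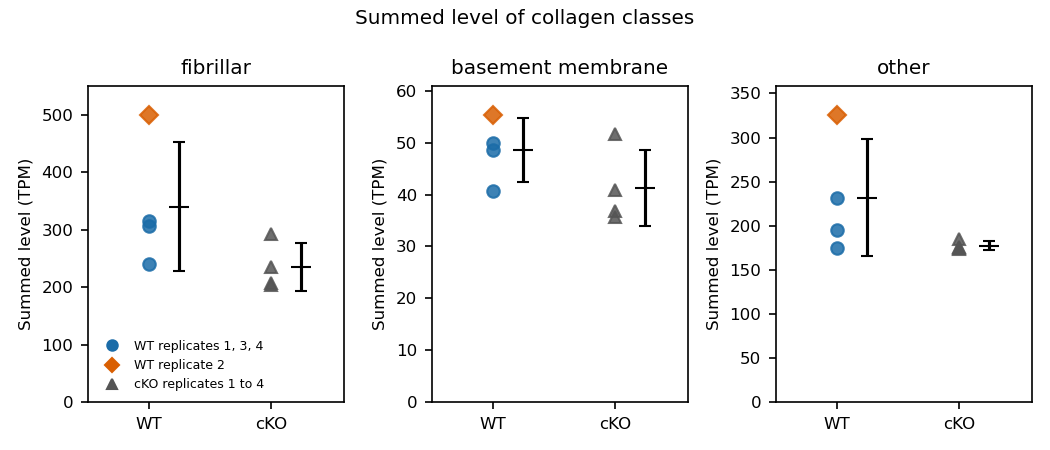
Summed level of collagen chains in TPM by class and genotype label, each axis starting at 0. Points are single libraries, the bars beside them are means ± SD (n = 4), and WT replicate 2 is drawn as a diamond; it is the highest library in all 3 panels, at 499.7, 55.3 and 326 TPM.

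Group differences were tested on rounded estimated counts with edgeR over 15098 genes, and CPM values below use the same scaling. No collagen chain passed an adjusted p of 0.05 (0 of 42, against 0% of all tested genes, edgeR; without WT replicate 2, 0 of 42 against 0.00662%), and DESeq2 and limma also called 0 chains. The lowest adjusted p of a chain was 0.887 (edgeR). Over all genes edgeR called 0, DESeq2 1, and limma on TPM 0 with the filter and 1 without. At an unadjusted p below 0.05, 8 chains were lower in cKO and 0 were higher, which is 19% of the chains, against 1.25% of all genes lower and 0.397% higher. Those 8 were Col1a1, Col1a2, Col5a1, Col5a2, Col4a4, Col6a2, Col8a1 and Col14a1. Without WT replicate 2 there were 5 chains, or 11.9%, all lower, against 1.08% of all genes lower and 0.854% higher, namely Col5a1, Col5a2, Col4a4, Col6a2 and Col8a1. All chains share the same 8 libraries, so these counts describe them and are not a test.

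Mean differences pointed to lower levels in cKO for 34 of 42 chains (81%), against 51.5% of all genes, with a median log2 fold change of −0.26 against −0.005 over all genes. By class this held for 9 of 11 fibrillar, 6 of 6 basement membrane and 19 of 25 other chains, with medians of −0.67, −0.16 and −0.25. Without WT replicate 2, 37 of 42 chains (88.1%) were lower, against 50% of all genes, and the medians were −0.15 for all chains, −0.27 for fibrillar, −0.13 for basement membrane and −0.13 for other chains. The fibrillar median was therefore the one that depended most on that library, while the count of lower chains did not shrink without it. The count did shrink without cKO replicate 2, to 31 of 42 chains with a median of −0.16. Lower basement membrane chains then numbered 4 of 6.

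**Figure D3:**
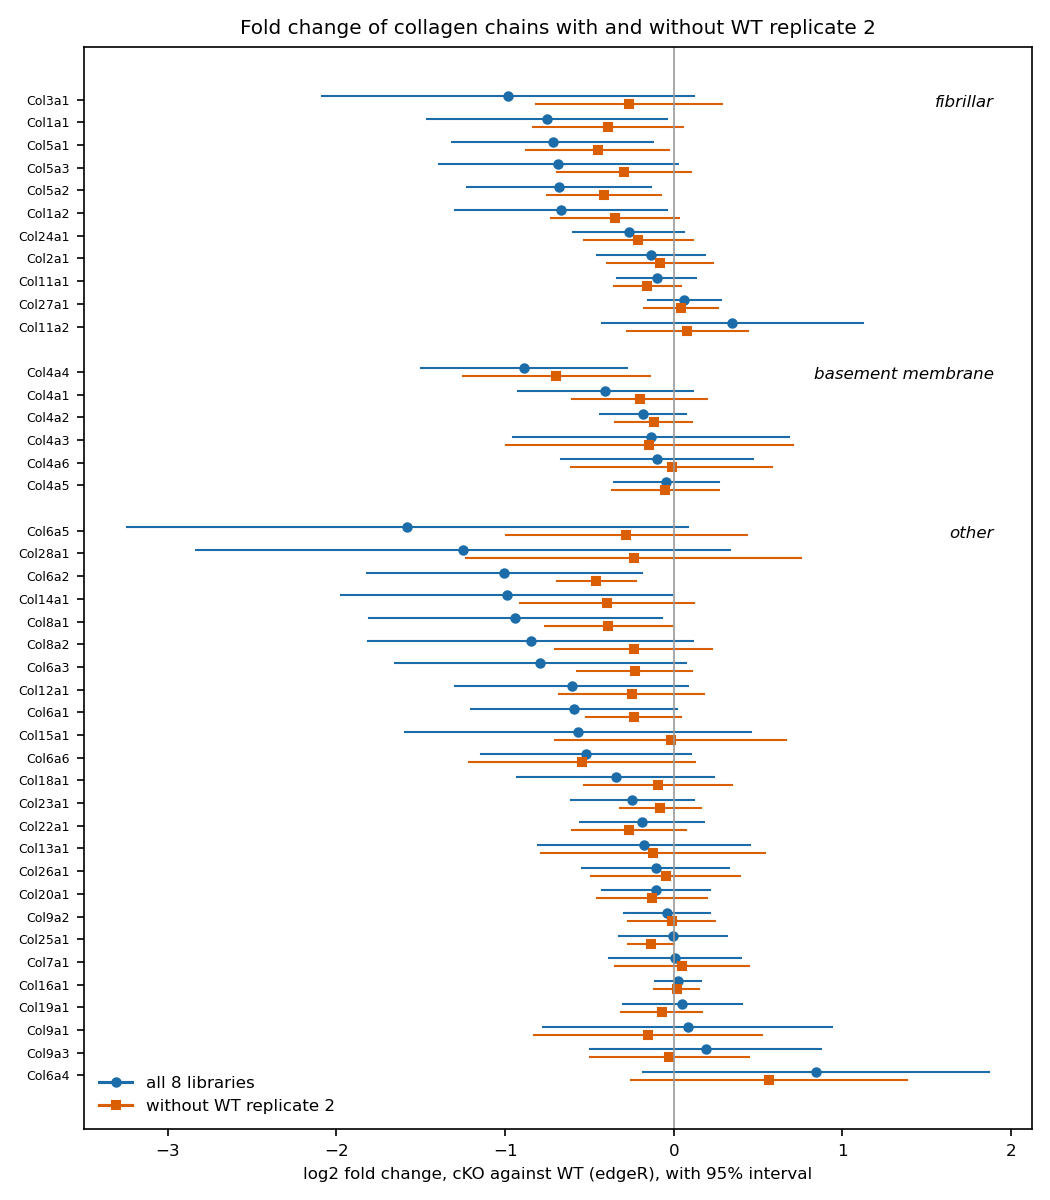
Log2 fold change of cKO against WT (edgeR) for the 42 tested chains by class, with 95% intervals. Circles use all 8 libraries and squares leave out WT replicate 2; most circles and squares lie left of 0, 34 and 37 of 42, and for Col3a1 the value moves from −0.98 to −0.27.

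Among fibrillar chains, Col1a1 (chromosome 11, 94936224 to 94953042, GRCm38) stood at 101, 273, 143 and 139 CPM in WT replicates 1 to 4 and at 103, 72.3, 81.5 and 133 CPM in cKO replicates 1 to 4. Col1a2 (chromosome 6, 4505618 to 4541543) stood at 206, 505, 282 and 272 CPM in WT and at 196, 163, 172 and 266 CPM in cKO. WT replicate 2 was the highest library for both, WT replicate 1 lay at the level of cKO replicate 1, and cKO replicate 4 lay close to WT replicates 3 and 4, so the groups overlapped. The log2 fold changes were −0.75 ± 0.31 and −0.67 ± 0.28 (SE; adjusted p = 0.887 each, edgeR), and −0.39 ± 0.20 and −0.35 ± 0.17 without WT replicate 2 (adjusted p = 0.9997 each). Exact permutation of log2 CPM gave p = 0.086 and 0.057, where the smallest possible is 0.029.

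Col3a1 (chromosome 1, 45311538 to 45349706) carried the widest spread of the abundant chains. It stood at 107, 448, 144 and 126 CPM in WT and at 97.9, 116, 58.8 and 145 CPM in cKO. WT replicate 2 was 3.94 times the mean of the other 7 libraries, and outside it the highest value was in cKO replicate 4. The group difference was −0.98 ± 0.48 on the log2 scale (SE; adjusted p = 0.887, edgeR) and −0.27 ± 0.24 without that library. Its exons overlap those of Gm47302 on the same strand over 141 bases, so reads there could be counted for either.

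Type V collagen starts type I fibrils and limits their width, and its 3 chains all had lower means in cKO. Col5a1 stood at 18.8, 47.6, 34.4 and 26.0 CPM in WT and at 17.4, 21.3, 16.4 and 22.1 CPM in cKO. Col5a2, close to Col3a1 on chromosome 1 (45374331 to 45503282), stood at 40.3, 83.6, 51.8 and 46.7 CPM in WT and at 32.1, 29.6, 31.1 and 45.9 CPM in cKO. For Col5a1 only WT replicate 1 lay within the cKO range, and for Col5a2 cKO replicate 4 lay above WT replicate 1. The log2 fold changes were −0.72 ± 0.26 and −0.68 ± 0.24 (SE; adjusted p = 0.887 each, edgeR), and −0.45 ± 0.19 and −0.41 ± 0.15 without WT replicate 2. Col5a3, the minor type V chain, had a log2 fold change of −0.68 ± 0.31 and, without that library, −0.29 ± 0.18.

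The remaining fibrillar chains had fold changes closer to 0. Col11a1, a chain of type XI collagen best known from cartilage, stood at 100.5, 88.6, 114 and 101 CPM in WT and at 106, 80.7, 97.8 and 92.2 CPM in cKO. WT replicate 2 was the second lowest library for it, and its fold change on the log2 scale, −0.10 ± 0.10 (SE), had a 95% interval of −0.33 to 0.13 and an adjusted p of 0.887 (edgeR). It was −0.16 ± 0.088 without that library. Its partner Col11a2 was at 18.9 CPM in WT replicate 2 and at 48.4 to 76.0 CPM in the other 7 (log2 fold change 0.35 ± 0.34, SE; 0.08 ± 0.16 without WT replicate 2). Col24a1 and Col27a1, chains of minor fibrillar collagens, had log2 fold changes of −0.27 ± 0.14 and 0.06 ± 0.096, and Col2a1, the main cartilage chain, −0.14 ± 0.14 (SE). The values of Col24a1, Col27a1 and Col2a1 were −0.21, 0.04 and −0.08 without WT replicate 2. Their mean levels were 5.19, 4.34 and 2.24 TPM.

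Among basement membrane chains, Col4a1 and Col4a2, the pair of nearly all basement membranes, were highest. Col4a1 stood at 55.6, 106, 70.6 and 72.3 CPM in WT and at 55.2, 49.1, 46.0 and 79.5 CPM in cKO. Col4a2 stood at 58.7, 73.1, 68.6 and 59.7 CPM in WT and at 56.0, 52.2, 52.4 and 68.7 CPM in cKO. For both chains 3 cKO libraries were below every WT library and cKO replicate 4 was not. The log2 fold changes were −0.41 ± 0.23 and −0.18 ± 0.11 (SE; adjusted p = 0.887 each, edgeR), and −0.20 ± 0.18 and −0.12 ± 0.10 without WT replicate 2.

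Col4a4, which with Col4a3 and Col4a5 forms the type IV network of the kidney filter and the inner ear, was the basement membrane chain of lowest p. It stood at 1.91, 4.07, 3.35 and 2.55 CPM in WT and at 1.83, 1.21, 1.69 and 1.69 CPM in cKO. In CPM all 4 cKO libraries lay below all 4 WT libraries, although WT replicate 1 and cKO replicate 1 were close. In TPM the groups overlapped, with WT replicate 1 at 0.40 and cKO replicates 1 and 3 at 0.41 and 0.40. The values rested on 19 to 70 estimated counts per library. On the log2 scale the difference was −0.89 ± 0.27 (SE; unadjusted p = 0.0097, adjusted p = 0.887, edgeR), or −0.70 ± 0.25 without WT replicate 2, and exact permutation gave the smallest possible p, 0.029. Col4a3, which starts next to Col4a4 on the opposite strand of chromosome 1, ranged from 0.659 to 2.30 CPM in WT and from 1.14 to 1.87 CPM in cKO (log2 fold change −0.14 ± 0.36, SE; −0.15 without WT replicate 2), and shares 274 exon bases with the antisense gene C430014B12Rik.

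The X-linked pair Col4a5 and Col4a6 had nearly equal group means. Col4a5 stood at 13.4, 14.3, 14.0 and 16.7 CPM in WT and at 15.7, 11.6, 12.7 and 16.7 CPM in cKO, and its log2 fold change of −0.04 ± 0.14 (SE; adjusted p = 0.935, edgeR) had a 95% interval of −0.35 to 0.27. WT replicate 2 was not apart for this chain, and the value was −0.05 without it. Col4a6 lay between 0.959 and 1.83 CPM in all 8 libraries (log2 fold change −0.10, and −0.01 without WT replicate 2).

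Type VI collagen, a beaded filament of the endoneurium and of muscle, supplied the 2 most abundant chains outside the fibrillar class. Col6a1 (chromosome 10, 76708792 to 76726044) stood at 51.7, 118, 68.6 and 47.1 CPM in WT and at 44.8, 52.3, 49.3 and 42.8 CPM in cKO. Col6a2 (chromosome 10, 76595756 to 76623630) stood at 47.6, 130.4, 52.8 and 37.8 CPM in WT and at 33.3, 36.1, 31.9 and 32.6 CPM in cKO. For Col6a2 every cKO library was below every WT library, while for Col6a1 the groups overlapped. The log2 fold change of Col6a2 was −1.004 ± 0.36 (SE; adjusted p = 0.887, edgeR), and −0.46 ± 0.10 without WT replicate 2 (unadjusted p = 0.0017, adjusted p = 0.9997); that of Col6a1 was −0.59 ± 0.27 and, without that library, −0.24 ± 0.12.

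Of the type VI chains that can take the third place in the trimer, Col6a3 was the main one. It ranged from 12.8 to 41.0 CPM in WT and from 9.84 to 14.8 CPM in cKO (log2 fold change −0.79 ± 0.38, SE), and its fold change was −0.23 ± 0.15 without WT replicate 2. Col6a5 stood at 9.001 CPM in WT replicate 2 and at 0.690 to 1.65 CPM in the other 7 libraries. Col6a4 had the opposite order, with 0.407 CPM in WT replicate 2 and 1.05 to 2.69 CPM elsewhere, and Col6a6 lay between 1.06 and 2.56 CPM. The log2 fold change of Col6a5 was −1.58 and, without WT replicate 2, −0.28. That of Col6a4 was 0.84 and 0.57, and that of Col6a6 was −0.52 and −0.55.

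Col8a1 and Col8a2 form the short-chain network of vessel walls and of the cornea. Col8a1 stood at 14.4, 44.8, 19.6 and 13.1 CPM in WT and at 12.9, 13.1, 12.8 and 9.19 CPM in cKO. Groups did not overlap, but WT replicate 4 and cKO replicate 2 were equal to 3 digits. The group difference was −0.94 ± 0.38 on the log2 scale (SE; adjusted p = 0.887, edgeR) and −0.39 ± 0.17 without WT replicate 2. Col8a2 reached 27.6 CPM in WT replicate 2 and 5.69 to 12.0 CPM elsewhere (log2 fold change −0.85, and −0.24 without that library). In CPM, 3 chains of 42 (7.14%) had every cKO library below every WT library, against 0.914% of all genes. They were Col4a4, Col6a2 and Col8a1, of which Col4a4 overlapped in TPM. The opposite order in CPM held for 0 chains, against 0.603% of all genes. Leaving out a library cannot make separated groups overlap, so Col4a4, Col6a2 and Col8a1 stayed apart in CPM without WT replicate 2. No further chain joined them (3 of 42, 7.14%), while the share over all genes was 2.11%. The opposite order then held for 0 chains, against 1.44% of all genes.

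Collagens that attach to fibrils fell into different library patterns. Col14a1, which binds type I fibrils, stood at 9.82, 46.5, 20.7 and 15.3 CPM in WT and at 11.6, 11.6, 9.22 and 14.1 CPM in cKO, with WT replicate 1 inside the cKO range (log2 fold change −0.99 ± 0.43, SE; −0.40 ± 0.23 without WT replicate 2). Col12a1, its relative, reached 98.4 CPM in WT replicate 2 and 34.5 to 63.6 CPM elsewhere (log2 fold change −0.60, and −0.25 without that library). Col16a1 was the steadiest of the chains described in full, at 44.9, 45.5, 49.9 and 45.4 CPM in the WT libraries against 48.1, 47.5, 48.5 and 44.8 CPM in the cKO libraries. On the log2 scale the difference was 0.02 ± 0.060 (SE; adjusted p = 0.919, edgeR; 95% interval −0.11 to 0.16), and it was 0.02 ± 0.058 without WT replicate 2.

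The type IX chains are partners of type II collagen in cartilage, and Col9a1, Col9a2 and Col9a3 had log2 fold changes of 0.08, −0.04 and 0.19. Without WT replicate 2 they were −0.15, −0.01 and −0.03, so Col9a1 and Col9a3 turned direction. Col9a3 stood at 20.9, 10.3, 19.1 and 29.6 CPM in WT and at 21.8, 20.4, 17.6 and 31.3 CPM in cKO, lowest in WT replicate 2 and highest in the 2 libraries numbered 4. Its value was 0.19 ± 0.30 (SE; adjusted p = 0.890, edgeR) and −0.03 ± 0.21 without WT replicate 2. Its exons share 234 bases with Tcfl5 on the opposite strand, and the counting is not stated to use strand. Col9a2 lay between 13.9 and 18.3 CPM in all libraries, and Col9a1 between 0.813 and 2.86 CPM with its lowest value in WT replicate 2. Among other fibril-associated chains, Col19a1, Col20a1 and Col22a1 had log2 fold changes of 0.05, −0.10 and −0.19. Without WT replicate 2 they were −0.07, −0.13 and −0.27, so Col19a1 turned direction.

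Of the chains left, Col28a1, which in mouse is found around Schwann cells of peripheral nerve, varied most: WT replicates 1 to 4 stood at 4.81, 60.2, 20.2 and 10.6 CPM against 9.47, 13.5, 5.08 and 12.3 CPM in the cKO libraries, which overlapped. Its log2 fold change was −1.25 and, without WT replicate 2, −0.24. Col15a1, the source of restin, reached 81.2 CPM in WT replicate 2 and 14.3 to 42.4 CPM elsewhere, and Col18a1, the source of endostatin, reached 25.1 CPM there and 10.5 to 20.1 CPM elsewhere. Their log2 fold changes were −0.57 and −0.35, and −0.02 and −0.09 without that library. Col25a1, a neuronal transmembrane collagen, was lowest in WT replicate 2 at 28.5 CPM and lay between 37.9 and 45.5 CPM in the other 7 (log2 fold change −0.0024, and −0.13 without WT replicate 2). The log2 fold changes of Col23a1, Col13a1, Col26a1 and Col7a1, the anchoring fibril chain, were −0.25, −0.18, −0.11 and 0.01, and without WT replicate 2 they were −0.08, −0.12, −0.05 and 0.05.

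**Figure D4:**
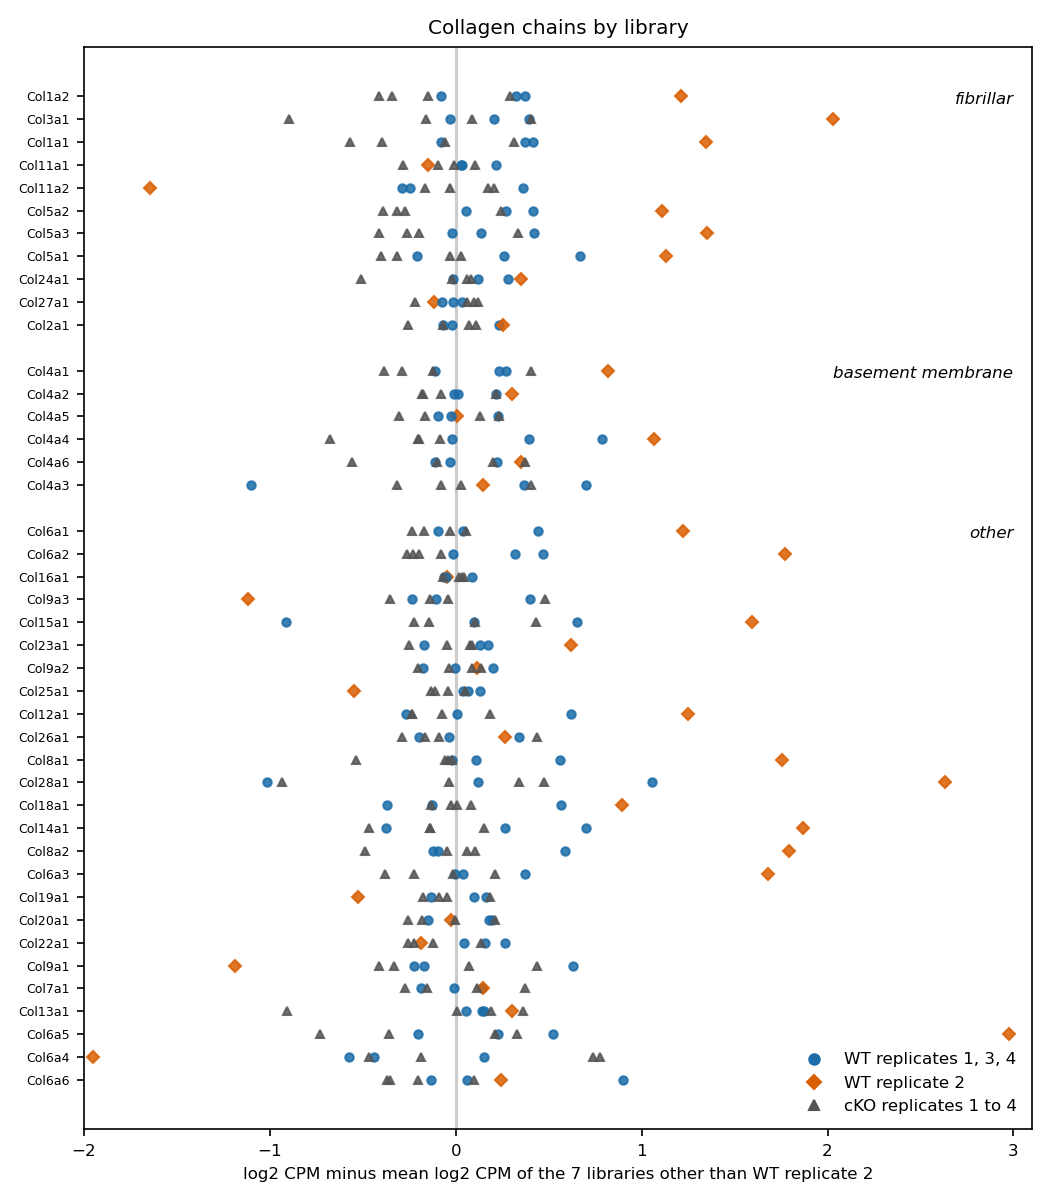
Log2 CPM of the 42 tested chains in each library, relative to the mean of the 7 libraries other than WT replicate 2, by class and, within it, by mean TPM. Circles are WT replicates 1, 3 and 4, diamonds WT replicate 2 and triangles cKO; diamonds lie to the right of all other symbols for 23 chains and to the left for 6.

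Across the libraries, WT replicate 2 and cKO replicate 2 held most of the extremes. WT replicate 2 had the highest CPM for 23 of 42 chains (54.8%), against 37.5% of all genes, and the lowest for 6 (14.3%), against 36.8%. The 6 were Col11a2, Col6a4, Col9a1, Col9a3, Col19a1 and Col25a1. Among fibrillar chains it was the highest library for 8 of 11. The lowest value lay in cKO replicate 2 for 16 of 42 chains, against 8.52% of all genes, and in cKO replicate 3 for 8 of 42, against 11.2%. The median coefficient of variation of the chains was 36.8% in WT, 16.0% in WT without replicate 2 and 17.2% in cKO.

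Chains of one collagen type were compared as ratios of TPM, which corrects for transcript length. Col1a1 stood at 0.430, 0.473, 0.443 and 0.446 times Col1a2 in WT replicates 1 to 4 and at 0.460, 0.387, 0.415 and 0.437 times in cKO replicates 1 to 4, so the ratio was below 0.5 in every library although WT replicate 2 had over 2 times the CPM of either chain in the other libraries on average. Col4a1 stood at 1.42 times Col4a2 in WT replicate 2 and at 0.867 to 1.18 times in the other 7 libraries. Col5a1 stood at 0.365 to 0.563 times Col5a2, Col6a3 at 0.0874 to 0.148 times Col6a1 and Col8a1 at 1.29 to 1.66 times Col8a2. Col9a2 stood at 30.8 times Col9a1 in WT replicate 2 and at 6.50 to 14.1 times elsewhere.

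The ratio of the 2 main type VI chains did not overlap between the groups, by a narrow gap. Col6a1 stood at 1.04, 0.861, 1.25 and 1.20 times Col6a2 in WT and at 1.3002, 1.40, 1.48 and 1.27 times in cKO. Every cKO library had a higher ratio than any WT library, the closest being cKO replicate 4 at 1.27 and WT replicate 3 at 1.25. Col6a2 was itself a chain whose groups did not overlap. How often ratios of other gene pairs separate the groups was not counted. The means were 1.09 ± 0.176 in WT and 1.36 ± 0.0984 in cKO (SD, n = 4 each), and 1.16 ± 0.111 in WT without replicate 2 (SD, n = 3). The difference between the group ratios was not tested, since 7 ratios were described and chosen with earlier results known.

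**Figure D5:**
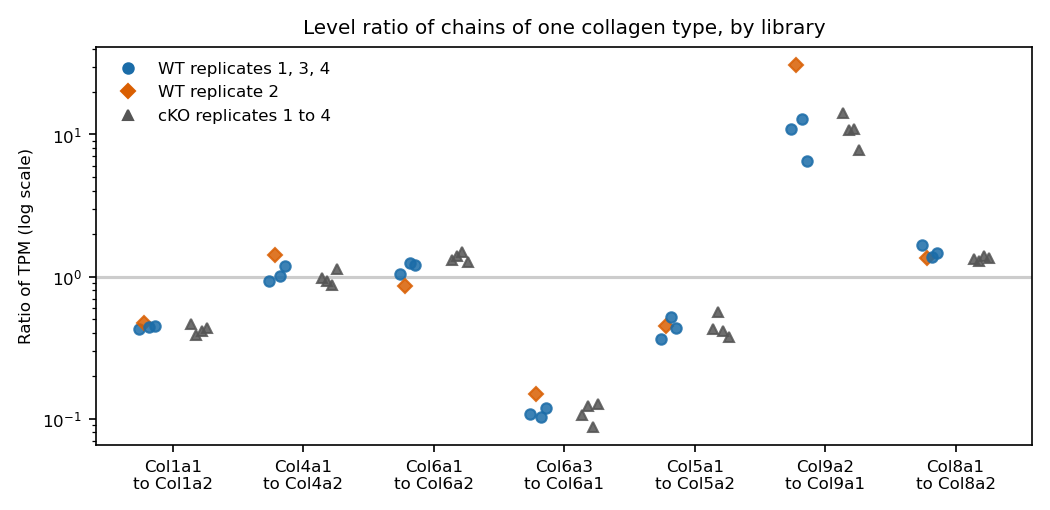
Ratio of the TPM of 2 chains of one collagen type in each library, on a log scale, with WT at the left and cKO at the right of each pair. Diamonds are WT replicate 2; the Col1a1 to Col1a2 ratio lies between 0.387 and 0.473 in all 8 libraries, and the Col6a1 to Col6a2 ratio is higher in all 4 cKO libraries than in any WT library.

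Genes that make, cut, cross-link and bind collagen were read from 8 lists with 93 tested genes. None passed in either direction (0 of 93, edgeR). Lower means in cKO were found for 74 of 93, against 51.5% of all genes, with a median of −0.26 (log2 fold change). Without WT replicate 2 they were found for 61 of 93, against 50% of all genes, with a median of −0.06. Fibril-binding proteins had the lowest median, −0.62 with 12 of 13 lower, and −0.13 with 8 of 13 without that library. Thbs1, a matricellular protein, and Bgn, the proteoglycan biglycan, had its lowest p, at log2 fold changes of −1.36 ± 0.46 and −0.82 ± 0.37 (SE, adjusted p = 0.887 each, edgeR). They were −0.75 and −0.27 without WT replicate 2.

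Basement membrane partners were lower in mean for 14 of 16 genes with and without WT replicate 2, with medians of −0.31 and −0.12. Lama5, a laminin chain, had means of 12.1 ± 1.73 CPM for WT against 9.35 ± 0.851 CPM for cKO, and Smoc1, a calcium-binding matrix protein, of 22.2 ± 1.52 and 18.7 ± 1.55 CPM (SD, n = 4 each). These were the 2 genes of lowest p in the list. Groups did not overlap in CPM for either, an order with cKO lower that 0.914% of all genes had. How many of the 16 listed genes had that order was not counted. Neither Lama5 nor Smoc1 passed (adjusted p = 0.887 each, edgeR). Their log2 fold changes were −0.38 and −0.24, and −0.30 and −0.20 without WT replicate 2. Cross-linking enzymes were lower for 6 of 6, with a median of −0.31 that became −0.09 without WT replicate 2. Lox, which oxidises lysines of collagen, stood at 39.9 ± 12.7 and 26.7 ± 10.8 CPM and Loxl2 at 8.27 ± 3.63 and 5.72 ± 0.881 CPM (SD, n = 4 each). Their log2 fold changes were −0.58 and −0.53, and −0.33 and −0.19 without that library.

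Hydroxylation and glycosylation enzymes had 10 of 15 lower and a median of −0.09, or 7 of 15 and 0.00 without WT replicate 2, with Colgalt1 and P4ha2 at log2 fold changes of −0.19 and −0.23 (−0.12 and −0.15 without it). Folding and secretion genes had 7 of 9 lower and a median of −0.31, or 7 of 9 and −0.03, with Sec24d and Creb3l1 at −0.31 and −0.76 (−0.17 and −0.18 without it). Propeptide cleavage genes had 6 of 8 lower and a median of −0.06, or 5 of 8 and −0.06, with Pcolce2 at 0.19 and Adamts2 at −0.39 (0.17 and −0.13 without it). Breakdown genes had 13 of 17 lower and a median of −0.33, or 10 of 17 and −0.05, with Ctsk and Mrc2 at −0.46 and −0.58 (−0.22 and −0.19 without it). Collagen receptors had 7 of 10 lower and a median of −0.32, or 7 of 10 and −0.04, with Itga2 and Ddr2 at −1.32 and −0.66 (−0.49 and −0.18 without it).

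Markers of the cells that make collagen moved with the libraries. The 15 fibroblast markers summed to 2973 TPM in WT replicate 2, to 894 to 1397 TPM in the other WT libraries and to 1004 to 1197 TPM in cKO, with 14 of 15 lower in cKO and 14 of 15 highest in WT replicate 2; without it 11 of 15 were lower, with a median of −0.06. The 15 meningeal fibroblast markers, 14 of them tested, summed to 1837 TPM in WT replicate 2, 2623 to 3360 TPM in the other WT libraries and 2120 to 3103 TPM in cKO. WT replicate 2 thus had the lowest sum, yet it was the highest library for 9 of the 14. Of these 12 of 14 were lower in cKO with a median of −0.55 and, without WT replicate 2, 13 of 14 with a median of −0.43. Their part in the collagen values was not tested.

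Endothelial markers summed to 165 TPM in WT replicate 2, 133 to 151 TPM in the other WT libraries and 102 to 167 TPM in cKO (12 of 12 lower, median −0.24; 11 of 12 and −0.17 without it). Mural markers summed to 212, 130.2 to 139.7 and 97.3 to 157 TPM (7 of 10 lower, median −0.27; 8 of 10 and −0.14), and Schwann cell markers to 6562, 3187 to 5694 and 2778 to 6538 TPM (9 of 12 lower, median −0.47; 9 of 12 and −0.06). Sensory neuron markers summed to 4794, 549.7 to 1637 and 478 to 1455 TPM (13 of 13 lower, median −1.30; 7 of 13 and −0.01), and macrophage markers to 507, 380.3 to 446 and 414 to 462 TPM (8 of 10 lower, median −0.12; 1 of 10 and 0.08). None of these genes passed the threshold in edgeR.

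Central nervous system markers had their lowest sums in WT replicate 2. Spinal cord neuron markers summed to 257 TPM there, 522 to 573 TPM in the other WT libraries and 500.5 to 599 TPM in cKO (2 of 11 lower, median 0.17; 7 of 11 and −0.01 without it), astrocyte markers to 749, 1791 to 2616 and 2016 to 2301 TPM (1 of 7 lower, median 0.18; 6 of 7 and −0.03), and oligodendrocyte markers to 2824, 7075 to 12547 and 8520.4 to 12208 TPM (0 of 8 lower, median 0.34; 2 of 8 and 0.09). Skeletal muscle markers summed to 349, 332 to 1254 and 452 to 1231 TPM (2 of 12 lower, median 0.44; 2 of 12 and 0.27). Cartilage and bone markers, which matter for the type II, IX and XI chains, summed to 92.9, 87.7 to 110.2 and 83.5 to 106 TPM (6 of 12 lower, median 0.04; 6 of 12 and −0.05), with Matn3 at 0 in at least 1 library. None of these genes passed the threshold in edgeR, and their part in the collagen values was not tested.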

How the data were processed

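Gene values came from 1 table of 18560 mouse genes. The authors deposited estimated counts (10.3% to 11.0% of values not whole), TPM and FPKM for each library, per the file headers. The submitters' processing notes list RSEM 1.3.1, Bowtie2 2.4.5 and HISAT2 2.2.1, and mm10 and GRCm38 as builds, without roles; the annotation and strand setting are not stated there. Columns called Ctrl were matched to the WT samples of the same number. Of the value columns, 16 (authors' normalized counts and group averages) were not used.

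Estimated counts were rounded and fitted with edgeR 4.0.16 in R 4.3.3 (filterByExpr by group, TMM, quasi-likelihood test, group as the only term), with Benjamini-Hochberg adjustment over the 15098 genes left. Standard errors came from the fold change and its F statistic. Permutation tests used all 70 assignments of log2 CPM (prior count 2), two-sided. Alternatives used DESeq2 1.42.0, limma 3.58.1 on log2(TPM + 0.1) and log2(TPM + 1), other filters and left-out libraries. The fit was tested on simulated data with the same dispersion for all genes and no outlying library, which does not show its power in these libraries. TPM of WT replicate 2 lay 0.15 log2 lower relative to its CPM than the average library. Groups are therefore compared in CPM for single genes, and chains are compared with each other in TPM. Sums over classes and marker lists are in TPM and carry this shift.

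Described in full were, by class, the 4 chains of highest mean TPM and the 3 of lowest p, and chains whose groups did not overlap; other chains and lists were summarised. The members and lists were chosen with earlier results of these data known. Positions and promoters came from RefSeq on GRCm38.p6 (44 of 44 chains matched for position) and exon overlaps from GENCODE M21. All pairs of libraries differed beyond sampling noise (chi-square of 3.64 or more per degree of freedom). The design text calls the replicates biological. Counting error is large for chains near 1 CPM. It can also reach the spread of higher chains whose libraries lie close together, such as Col27a1 at 198 to 253 estimated counts.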

Additional observations from a re-analysis of the deposited data

Results flagged for a closer look

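In groups of 4, a library was marked where its gap to the nearest other library exceeded Dixon's 95% critical share of the group's range, over 54 groups of values, and chance marks about 1 group in 20. This marked 5 values, 2 of them in WT replicate 2. Col3a1 stood at 448 CPM in WT replicate 2 against 107 to 144 CPM in the other WT libraries, and Col6a2 at 130 CPM against 37.8 to 52.8 CPM. Col5a2 stood at 45.9 CPM in cKO replicate 4 against 29.6 to 32.1 CPM in the other cKO libraries. Col8a1 stood at 9.19 CPM in cKO replicate 4 against 12.8 to 13.1 CPM. Col16a1 stood at 49.9 CPM in WT replicate 3 against 44.9 to 45.5 CPM, a small difference in a tight group.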

How the results depend on the processing

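No chain passed the threshold under any of the 17 alternatives (edgeR, DESeq2, limma). The count of genes past it was 1 with DESeq2 (Lztfl1), 1 with limma on log2(TPM + 0.1) without the filter (Cst12) and 0 to 1 with single libraries left out (Capn11 without WT replicate 2); these genes are named after their values were seen. Chains lower in cKO numbered 30 to 37, lowest with both libraries numbered 2 left out and highest without WT replicate 2. They numbered 31 without cKO replicate 2. The fibrillar median lay between −0.81 and −0.27 with single libraries left out, the latter without WT replicate 2. The log2 fold change of Col4a5 lay between −0.133 and 0.0424 with single libraries left out, above 0 without WT replicate 4 (0.0265), cKO replicate 2 or cKO replicate 3 (0.0049), and that of Col9a3 between −0.0253 (WT replicate 2 left out) and 0.443, and was −0.0032 with cKO replicate 4 left out. For the 16 chains described in full, the other 266 of 272 alternative values kept their direction and their side of the threshold; of the other chains, Col9a1 (−0.15) and Col19a1 (−0.07) also turned direction with WT replicate 2 left out.

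Deviations of same-numbered libraries from their group means correlated at −0.04 to 0.25, and those of differently numbered libraries at −0.22 to 0.27. These values do not settle whether the libraries were paired, since the labels assign no batch to any library. With the replicate block 34 of 42 chains were lower (median −0.24) and 0 passed. With the block and both libraries numbered 2 left out, the medians were −0.09 for all chains and −0.27 for fibrillar chains, and Col4a5 stood at 0.0328. Ratios of FPKM equal those of TPM apart from rounding, so they give no separate check. Chains near 1 CPM rest on few counts and cannot show small differences.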
